A study of Mus musculus with 2 samples.

Results

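The 36 genes described here encode the enzymes and regulators of cholesterol and fatty acid synthesis. They were taken by name for their role in these pathways, with no threshold on a measured value, out of 21911 genes in the series, and all 36 were found. They were sorted by role into 5 SREBP regulators, 19 genes of the sterol pathway and 12 genes of the fatty acid pathway. The genes called SREBP regulators encode or control the sterol regulatory element-binding proteins (SREBPs). The cells were 4T1, a mouse mammary carcinoma line that spreads to the lung. RNA was sequenced from 1 library of cells kept for 48 h with PBS and 1 library of cells kept for 48 h with potassium oxalate. The oxalate dose is given as 20 µM in the methods and in the label of the sample, and as 20 mM in the treatment protocol and the design text. No gene was altered in either group, and nothing in the sources says whether the cells of a library came from more than 1 culture dish.

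Cholesterol is built from acetyl-CoA through mevalonate, the isoprenoid diphosphates and squalene, and is then trimmed from lanosterol by a chain of oxidases, reductases and isomerases. Fatty acids are built from the same acetyl-CoA by carboxylation and chain synthesis, and are then elongated and desaturated. Transcription of both pathways is driven by SREBPs, membrane proteins of the endoplasmic reticulum that the escort protein SCAP carries to the Golgi for cleavage when sterols are low. INSIG proteins hold SCAP back when sterols are high. Tumor cells often run both pathways to make membranes.

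SREBPs are known to bind sterol regulatory elements and E-boxes, usually beside sites for the CCAAT-binding factor NF-Y, and the start regions of 3 members are shown because they lie upstream of a mevalonate enzyme, of the sterol-sensing anchor and of the chain-building enzyme of fatty acid synthesis. The sequences are from RefSeq on GRCm38.p6, run 5′ to 3′ on the strand of the gene and end before the first base of the RefSeq start or, for Insig1, before its first annotated exon. Capitals mark CACCCCAC (the core of the sterol regulatory element), CCAAT (the NF-Y box) and CACGTG (an E-box) on either strand, so that NF-Y boxes on the opposite strand read ATTGG.
Hmgcs1 (chr13:119690101-119690350, plus strand): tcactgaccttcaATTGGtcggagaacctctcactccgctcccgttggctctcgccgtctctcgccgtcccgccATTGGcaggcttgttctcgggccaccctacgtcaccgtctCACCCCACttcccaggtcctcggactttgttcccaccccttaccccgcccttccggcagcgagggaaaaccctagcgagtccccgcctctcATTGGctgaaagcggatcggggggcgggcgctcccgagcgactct
Insig1 (chr5:28071162-28071362, plus strand): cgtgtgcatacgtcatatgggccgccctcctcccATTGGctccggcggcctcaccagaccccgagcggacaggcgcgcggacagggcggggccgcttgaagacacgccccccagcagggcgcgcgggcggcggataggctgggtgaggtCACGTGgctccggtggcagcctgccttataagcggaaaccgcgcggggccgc
Fasn (chr11:120824548-120824797, minus strand): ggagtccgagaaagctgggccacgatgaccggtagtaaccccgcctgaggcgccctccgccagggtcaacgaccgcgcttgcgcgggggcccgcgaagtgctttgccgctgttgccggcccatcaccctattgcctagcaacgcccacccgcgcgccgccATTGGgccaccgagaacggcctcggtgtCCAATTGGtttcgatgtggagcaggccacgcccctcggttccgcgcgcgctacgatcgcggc
In Hmgcs1 the sterol regulatory element core began 136 bases before the start and lay between NF-Y boxes that began 176 and 45 bases before it. The Insig1 stretch held an NF-Y box and an E-box, and the Fasn stretch held 3 NF-Y boxes, of which a pair overlapped each other on opposite strands.

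Start regions of 300 bases (250 before to 50 after the start) were found in RefSeq for 29 of the 36 members. Those of Stard4, Scd1, Scd2, Fdps, Fdft1, Fads1 and Sqle were not matched. An NF-Y box was present in 24 of the 29 (82.8%), against 41.1% of all 27025 genes in the table and 43.5% of the 8158 genes in it that averaged 1 FPKM or more. By role, it was found in 14 of 15 sterol pathway genes, 4 of 5 regulators and 6 of 9 fatty acid genes. The sterol regulatory element core was found in Hmgcs1 and Acat2 (6.90% of the 29, against 3.30% of all genes and 3.65% of those 8158), and an E-box in 6 of the 29 (20.7%, against 8.09% of all genes and 12.5% of those 8158), namely Dhcr7, Elovl5, Hsd17b7, Insig1, Sc5d and Scap. A match of letters is not a bound site, and binding was not measured.

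The authors deposited FPKM, fragments scaled to transcript length in kilobases and to the total of mapped fragments, for each gene and library. Steps between low values put the PBS library at about 56700000 reads and the oxalate library at about 36500000 reads. Differences are given as log2((oxalate + 1)/(PBS + 1)), a scale that understates the change of low genes. Genes averaging 1 FPKM or more over the libraries are called tested here, in all 10267, and their median log2 fold change was 0.0031. Of the members, 35 passed this filter and Acacb did not. With no replicate, no test between PBS and oxalate was possible. In place of a replicate error, each member has an exact (Clopper-Pearson) 95% interval of log2(oxalate FPKM/PBS FPKM) from its estimated reads, which covers counting error only and compares the libraries, not the conditions. The cells carried the markers of mammary epithelium, with Krt7, Krt8, Krt18, Krt19, Epcam and Cdh1 between 125.33 and 703.31 FPKM. Ptprc, Cd3e, Ly6g and Plin1 were listed at 0 in both libraries, Pecam1, Cdh5 and Adipoq were at 0.06 FPKM or less, and Cd68, which tumor cells can also express, was at 7.79 and 7.11 FPKM.

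**Figure D1:**
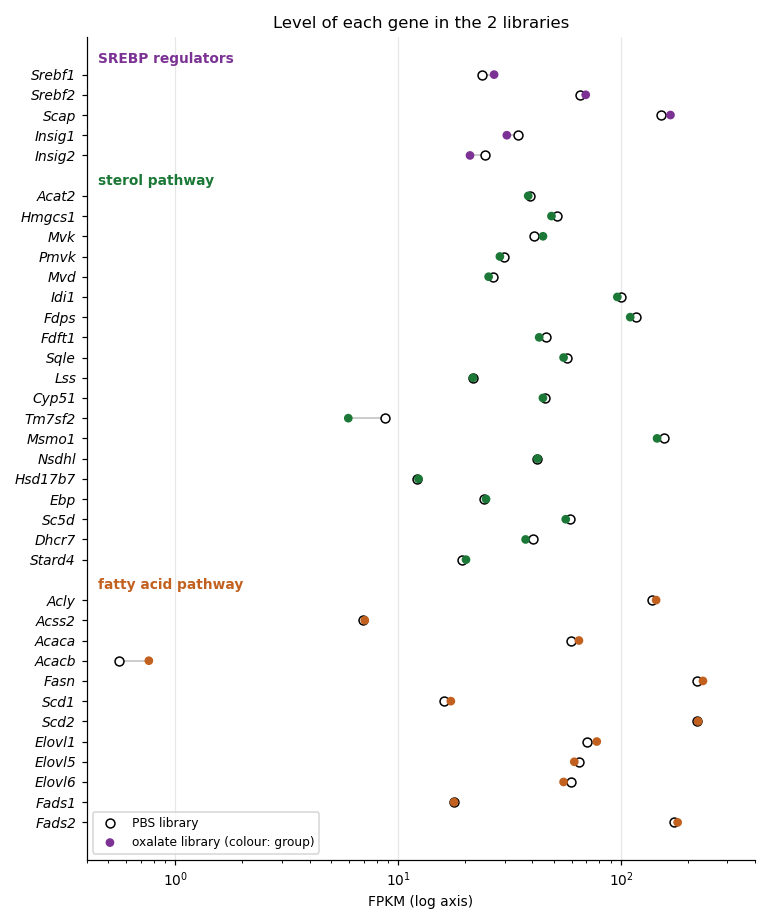
FPKM (log axis) of the 36 genes in the PBS library (open circles) and the oxalate library (filled circles, coloured by group). For most genes the circles nearly coincide, with a visible gap for Tm7sf2 (8.71 and 5.97 FPKM) and Acacb (0.56 and 0.76 FPKM).

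Among the SREBP regulators, the transcription factors and their escort were slightly higher with oxalate and both INSIG anchors were slightly lower. Srebf2 (chromosome 15, 82147181 to 82205379), whose product chiefly drives the sterol genes, was at 65.66 FPKM in PBS and 69.44 in oxalate, a log2 fold change of 0.080. Srebf1 (chromosome 11, 60199089 to 60222581), whose products favour the fatty acid genes, was at 23.76 and 26.94 FPKM, a log2 fold change of 0.17. Scap (chromosome 9, 110333288 to 110384950) had the highest level of the 5, with 151.72 FPKM in PBS and 166.73 FPKM in oxalate (log2 fold change 0.14). These genes thus differed by at most 1.13-fold, and the counting intervals of all 3 lay above 0 (0.12 to 0.24 for Srebf1, 0.036 to 0.13 for Srebf2 and 0.093 to 0.18 for Scap).

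Insig1 (chromosome 5, 28071363 to 28078662), the anchor that is itself a well-known SREBP target and whose start region is shown above, went the other way. It was at 34.50 FPKM in PBS and 30.73 in oxalate, which is 1.12-fold lower (log2 fold change -0.16, counting interval -0.23 to -0.10). Insig2 (chromosome 1, 121304353 to 121332589), the anchor that depends less on SREBPs, was at 24.61 and 21 FPKM, 1.16-fold lower (log2 fold change -0.22, counting interval -0.37 to -0.091). The balance between the anchors was similar in both libraries, since Insig1 held 58.4% of their summed FPKM with PBS and 59.4% with oxalate. Likewise Srebf2 held 73.4% and 72.0% of the summed FPKM of the SREBP genes.

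The sterol genes lay mostly a little lower with oxalate, 13 of 19 with a log2 fold change below 0, against 49.0% of all genes tested. Their median was -0.051 and the middle of the list ran from -0.088 to 0.0079 (quartiles), where the quartiles of all genes tested were -0.087 and 0.088. Counting intervals lay below 0 for 7 of the 19 and above 0 for 1, and those of 11 span 0. In the steps that lead to squalene, 7 of 8 genes were lower. Of these 8, 3 had an interval below 0, 1 had an interval above 0 and 4 had intervals that span 0. Acat2, the cytosolic thiolase that joins acetyl-CoA units, had 39.07 FPKM in PBS and 38.33 in oxalate (log2 fold change -0.027, counting interval -0.096 to 0.041). Hmgcs1 (chromosome 13, 119690379 to 119708260), the HMG-CoA synthase, had 51.74 and 48.74 FPKM (-0.084). Mvk, mevalonate kinase (chromosome 5, 114444269 to 114460591), was the exception, with 40.80 and 44.65 FPKM (log2 fold change 0.13, counting interval 0.043 to 0.22). For the kinase and the decarboxylase that follow it, the direction was not resolved. Pmvk was at 29.71 and 28.60 FPKM (-0.053) and Mvd at 26.66 and 25.46 FPKM (-0.064), both with counting intervals that span 0.

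Isoprenoid diphosphates and squalene are made by the next 3 enzymes, all at high levels. Idi1, the isomerase, was at 99.75 FPKM in PBS and 96.28 in oxalate (log2 fold change -0.051). For Fdps, farnesyl diphosphate synthase, the values were 117.30 and 109.99 FPKM (-0.092). Fdft1, squalene synthase and the committed step toward sterols, had 45.89 and 42.92 FPKM (-0.094). The counting intervals of Hmgcs1, Fdps and Fdft1 lay below 0 and that of Idi1 reached 0.0029.

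After squalene, 6 of 10 genes were lower and 4 were higher, and only Tm7sf2 passed 1.2-fold. Sqle, squalene epoxidase and a rate-limiting enzyme, was at 57.00 FPKM in PBS and 55.24 in oxalate (log2 fold change -0.044). Lss, which closes the ring system to lanosterol, had 21.57 and 21.65 FPKM (0.0051). The lanosterol demethylase Cyp51 had 45.78 and 44.61 FPKM (-0.037). The intervals of all 3 span 0, which means that this depth could not show a difference.

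Removal of further lanosterol methyl groups, beyond the one removed by Cyp51, is shared by Msmo1, Nsdhl and Hsd17b7. These genes spanned a wide range of levels. Msmo1, the methyl sterol oxidase, was the highest of the sterol genes at 155.48 FPKM in PBS and 145.17 in oxalate (log2 fold change -0.098, counting interval -0.15 to -0.050). The dehydrogenase Nsdhl had 41.85 and 42.17 FPKM (0.011), and the ketoreductase Hsd17b7 had 12.10 and 12.33 FPKM (0.025). Ebp, the sterol isomerase, was at 24.39 and 24.79 FPKM (0.023). Those 3 genes had intervals on both sides of 0. Of the enzymes that finish the ring, the desaturase Sc5d had 58.79 and 56.48 FPKM (-0.057), and the reductase Dhcr7 had 40.29 and 37.30 FPKM (-0.11), each with an interval below 0. Stard4, a cytosolic sterol carrier, was at 19.24 and 20.15 FPKM (0.063, interval -0.024 to 0.16).

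Tm7sf2 (chromosome 19, 6062821 to 6068373), a sterol reductase that acts after Cyp51, was the member with the largest difference that passed the filter. It was at 8.71 FPKM in PBS and 5.97 in oxalate, 1.39-fold lower (log2 fold change -0.48). Its estimated 475 and 209 reads gave a counting interval of -0.79 to -0.31. It was also the lowest of the sterol genes, and 9 coding transcripts are annotated for it, the most in that list. The annotated exons of Tm7sf2 overlap those of Vps51 on the same strand over 12.1% of their bases, so its value is uncertain. Vps51 itself was at 21.37 and 22.69 FPKM. The part of transcript choice and of the overlap in the difference was not tested.

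**Figure D2:**
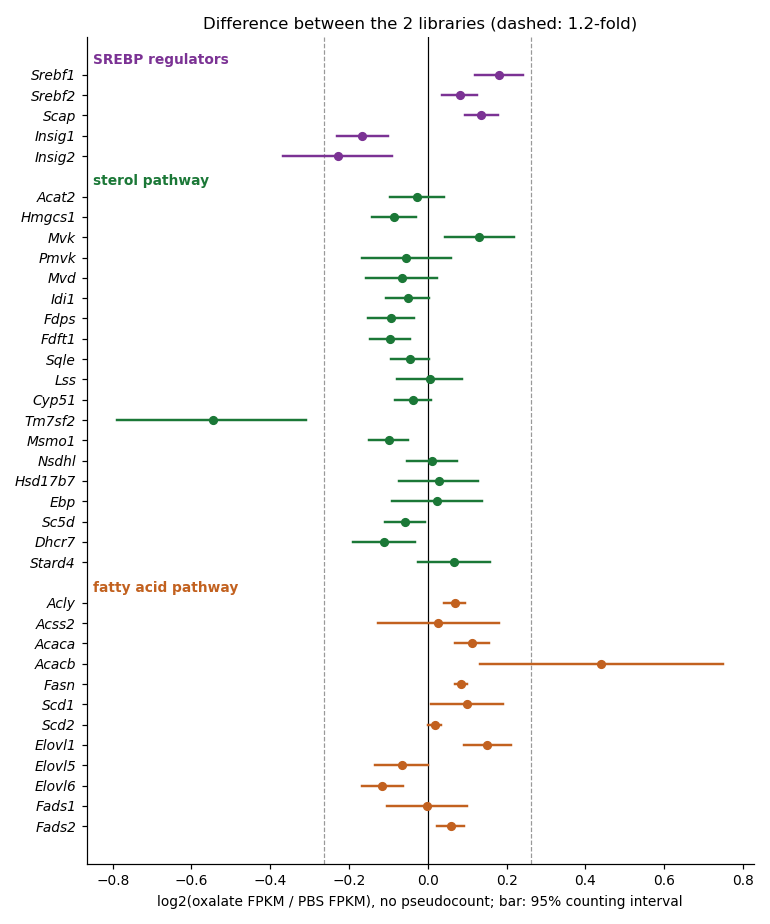
Difference between the libraries for each gene, as log2(oxalate FPKM/PBS FPKM) with no pseudocount, with the 95% counting interval as a bar and 1.2-fold as dashed lines. The point of Tm7sf2 lies beyond the lower dashed line and that of Acacb, at under 1 FPKM, beyond the upper, and both INSIG genes lie left of 0 while Srebf1, Srebf2 and Scap lie right of it.

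In the fatty acid pathway, 8 of 11 tested genes were slightly higher with oxalate, against 50.6% of all genes tested, with a median log2 fold change of 0.058. Counting intervals lay above 0 for 6 of the 11 and below 0 for 1, where 24.9% and 23.8% of all genes tested did. Those of the other 4 (Acss2, Scd2, Fads1 and Elovl5) span 0, so their direction was not resolved. Among the genes for acetyl-CoA supply and carboxylation, the RNA of Acly and Acaca was the most abundant. Enzyme activity was not measured. Acly, ATP citrate lyase, was at 137.10 FPKM in PBS and 143.76 in oxalate (log2 fold change 0.068). Acss2, which makes acetyl-CoA from acetate, was low at 6.95 and 7.08 FPKM (0.023). Acaca, the cytosolic acetyl-CoA carboxylase, had 59.92 and 64.74 FPKM (0.11, counting interval 0.069 to 0.15).

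Acacb (chromosome 5, 114146535 to 114250761), the mitochondrial carboxylase whose product restrains fatty acid oxidation, was at 0.56 FPKM in PBS and 0.76 in oxalate, about 1% of the summed FPKM of both carboxylases (0.926% and 1.16%). Its log2 fold change was 0.17, and without the pseudocount 0.44, with a counting interval of 0.13 to 0.75 from an estimated 190 and 166 reads. Fasn (chromosome 11, 120805846 to 120824547), fatty acid synthase, was the highest of all 36 genes at 220.09 and 233.24 FPKM (0.083). With an estimated 79143 and 53926 reads, its counting interval was narrow, 0.068 to 0.10.

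Of the desaturases among the 36 genes, the highest level was that of Scd2 (chromosome 19, 44293674 to 44306864), which stood at 219.12 FPKM in PBS and 221.72 in oxalate (log2 fold change 0.017). Its neighbour Scd1 (chromosome 19, 44394455 to 44407879), the main stearoyl-CoA desaturase of liver and fat, was at 16.08 and 17.23 FPKM (0.094). Scd2 held 93.2% and 92.8% of the FPKM of this pair. For Fads2, which places double bonds in polyunsaturated chains, the levels were 172.49 and 179.57 FPKM (0.058), and for its partner Fads1 17.86 and 17.82 FPKM (-0.0031).

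Elongases did not share a direction. Elovl1, which extends saturated very long chains, had 70.11 FPKM in PBS and 77.85 in oxalate (log2 fold change 0.15, counting interval 0.091 to 0.21). Elovl6, which extends palmitate, had 59.83 and 55.23 FPKM (-0.11, interval -0.17 to -0.064). Elovl5, which extends polyunsaturated chains, had 64.64 and 61.72 FPKM (-0.066, interval -0.13 to 0.0013).

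The members differed little between the libraries, as did most genes tested. None of the 35 tested was at least 1.2-fold higher, where 4.75% of all genes tested were, and 1 (Tm7sf2) was at least 1.2-fold lower, where 5.19% were. None reached 1.5-fold in either direction, against 1.99% of all genes. Shares this small amount to few genes among 35, so these counts lie near those of all genes. Of the 35, 30 differed by less than 1.1-fold (85.7%), compared with 69.5% of the genes tested and with 72.7% of the 8284 genes that averaged 5 FPKM or more, a level that all 35 reach. The median level of the 36 members was 43.8 FPKM in each library, well above that limit. A background matched to the members on level was not tested. Counting intervals lay below 0 for 10 members and above 0 for 10, where 23.8% and 24.9% of all genes tested lay below and above. The summed FPKM of the sterol genes was 936 with PBS and 901 with oxalate, and that of the fatty acid genes was 1045 and 1081.

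Base composition also moved with the difference between the libraries. Over all genes tested, the median log2 fold change ran from -0.075 at a GC content of up to 42% to 0.034 at 54% to 58%. Both INSIG genes have under 50% GC in their coding transcripts (48.2% for Insig1 and 47.0% for Insig2), and Srebf1, Srebf2 and Scap have 58.3% to 59.0%. When the running median over GC content was taken away, Insig1 stayed at -0.15 and Insig2 at -0.22, and Srebf1 was at 0.14, Srebf2 at 0.055 and Scap at 0.10. The sterol median was then -0.038 with 13 of 19 genes lower. For the fatty acid genes the median was then 0.020, with 6 of 11 higher in place of 8. Idi1, Lss, Acss2 and Scd2 changed sign. Sterol genes with at least 50% GC were lower in 7 of 10 cases (median -0.059), where 2215 of 5426 of all tested genes with such GC content were lower (median 0.029). Those under 50% were lower in 6 of 9 cases (median -0.044), where 2814 of 4835 of all tested genes were (median -0.026).

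**Figure D3:**
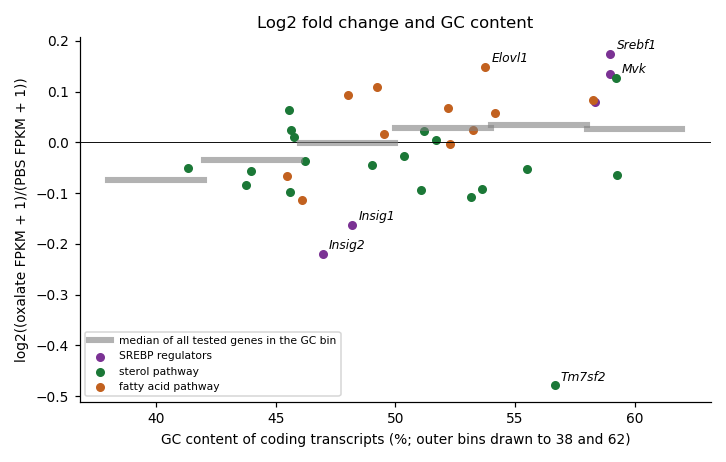
Log2 fold change of the 35 tested genes against the GC content of their coding transcripts (%), with grey bars for the median of all tested genes in each GC bin. Insig1, Insig2 and Tm7sf2 lie below the bar of their bin, and Srebf1, Mvk and Elovl1 above it.

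Sequence shared with other genes limits some of these values. Of the 36 members, 17 share no stretch of 50 bases of their coding transcripts with another annotated gene, and 8 share at least 10% of such stretches. The largest shares were those of Fdps (64.1%, mostly with Gm43738, which overlaps it), Acaca (49.1%, with Gm5182) and Acat2 (40.7%, with its near copy Acat3). Fdft1 followed with 30.7%, mostly with Ctsb, whose exons overlap it on the opposite strand. The rest were Idi1 (28.6%), Tm7sf2 (19.5%, with Vps51), Hmgcs1 (12.6%) and Scap (11.7%). Scd1 and Scd2 share 4.61% and 4.01% with other genes. How the authors' counting treated such reads is not given in the sources used here, and values of these genes are uncertain to that extent.

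Genes around the pathways were read from 6 further lists, with the same filter. Of all genes tested, 49.0% were lower and 50.6% higher, and 5.19% and 4.75% were so by at least 1.2-fold. For SREBP processing and sterol sensing, 13 of 17 genes were lower and 4 higher, with a median log2 fold change of -0.033. The counting intervals of 11 of these 17 genes span 0. Paqr3, a Golgi protein that tethers SCAP and SREBP, passed 1.2-fold at 2.32 FPKM in PBS and 1.19 in oxalate (log2 fold change -0.60), and its exons overlap Bmp2k on the opposite strand over 15.7% of their bases, and whether reads were counted by strand is not given in the sources used here. The proteases that cleave SREBPs in the Golgi, Mbtps1 and Mbtps2, were at 39.50 and 39.19 FPKM and at 19.85 and 18.88 FPKM. In the isoprenoid branch, which turns farnesyl diphosphate into dolichol, ubiquinone and protein prenyl groups, 10 of 17 genes were lower (median -0.049). Dhdds, which builds the dolichol chain, was the member past 1.2-fold, at 17.21 and 13.05 FPKM (-0.37).

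Sterol uptake, storage and efflux showed no common direction, with 7 of 12 genes higher and a median of 0.027. Lipa, the lysosomal acid lipase that frees cholesterol from its esters, was at 6.81 FPKM in PBS and 2.82 in oxalate. With the pseudocount it was 2.04-fold lower (log2 fold change -1.03). Without the pseudocount the log2 ratio was -1.27, with a counting interval of -1.46 to -1.09. The efflux pumps Abca1 and Abcg1 were listed at 0 in both libraries. Among fatty acid activation and elongation partners, 9 of 18 genes were higher and 9 lower (median 0.0046). Acsl1, an acyl-CoA synthetase, was at 5.41 and 10.29 FPKM (0.82), and Scd3, a close relative of Scd1, was at 5.51 and 8.01 FPKM (0.47). Acsl5, the most abundant synthetase, was at 250.44 and 246.50 FPKM. In glycerolipid synthesis 9 of 16 genes were higher (median 0.035) and none passed 1.2-fold. Fatty acid oxidation had 14 of 23 genes higher and 8 lower (median 0.048), with Acaa1a, a peroxisomal thiolase, at 11.27 and 14.48 FPKM (0.34) and Slc25a20, the mitochondrial carnitine carrier, at 4.72 and 3.71 FPKM (-0.28). All of these genes past 1.2-fold except Slc25a20 have more than 1 coding transcript.

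**Figure D4:**
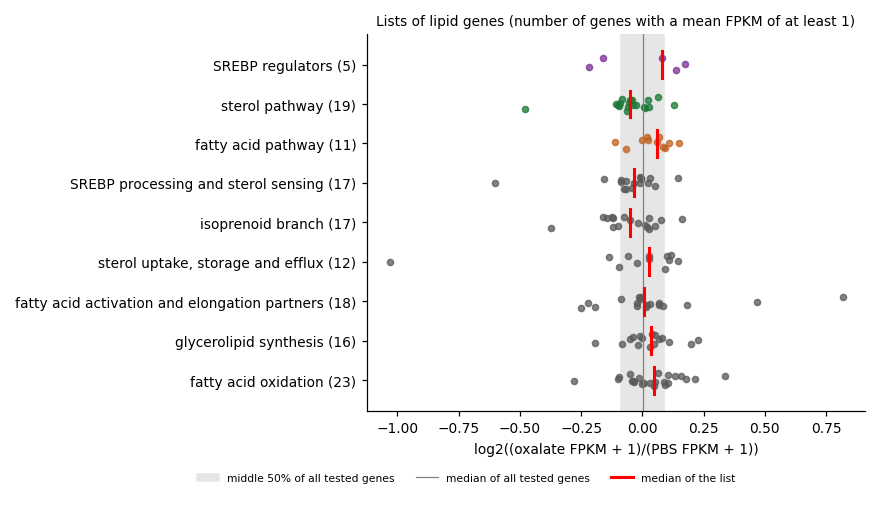
Log2((oxalate FPKM + 1)/(PBS FPKM + 1)) of each gene in the 3 groups and the 6 further lists, with the list median in red and the middle 50% of all tested genes in grey. All 9 medians lie inside the grey band, and Lipa (-1.03) and Acsl1 (0.82) lie farthest out.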

How the data were processed

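Libraries were made from oligo(dT)-selected RNA with random primers, and the authors deposited FPKM to 2 decimals in 1 column per library. The submitters' processing notes name Bowtie2 2.2.8 and TopHat2 2.1.1. The counting tool, genome build and filters are not given in the sources used here. Ensembl identifiers were matched to GENCODE M21 (GRCm38), with symbols for 21848 of 21911, and coordinates are from it. Log2 fold changes used a pseudocount of 1 and genes averaging 1 FPKM or more. Depth was fitted from low values of genes with 1 transcript under 0.7 kb (80 and 73 values, 100% within 0.2 of a whole read), and reads were estimated with the mean length of coding transcripts. Intervals cover counting error only and take each estimated read as independent. Reads copied by PCR are not independent molecules, so the intervals can be too narrow even for that error. The scripts were tested on simulated data. Members and lists were chosen with earlier results of these data known, and the lists are not complete. Every member is named, and from the further lists at most 5 genes past 1.2-fold. Genes named beyond this rule (Vps51, Acat3, Bmp2k, Mbtps1, Mbtps2, Acsl5, Abca1, Abcg1) were chosen after their values were seen, as were the 1.1-fold share, the 5 FPKM background, the splits at squalene and at 50% GC, the check of shared sequence and the limit of 0.05 for a moved median. Software: scipy 1.17.1, matplotlib 3.10.9, pandas 2.3.3 and numpy 2.4.6 under Python 3.11.15.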

Additional observations from a re-analysis of the deposited data

How the results depend on the processing

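No paired analysis was possible because there was 1 library per condition, and no replicate could be left out. Alternatives were pseudocounts of 0.1 and 0.001, a rescaling, all listed genes, a mean FPKM of at least 5, the GC trend taken away, genes with 1 coding transcript, and the mean in place of the median. Shifts of a median by over 0.05 were counted as moves. Most of the medians are no larger than this limit, so a median could change sign without being counted. The regulator median of 0.080 became -0.16 with 1 coding transcript, where Insig1 alone is left, and 0.0016 as a mean. The 1 member at least 1.2-fold lower became 0 with 1 coding transcript, since that leaves 5 members without Tm7sf2. The mean was taken in place of the median for the groups and all members only. Among the further lists, sterol uptake, storage and efflux had a median of 0.027 and a mean of -0.061. The other medians of groups and lists shifted by 0.05 or less under the alternatives run for them. Within that limit, the fatty acid median fell from 0.058 to 0.020 with the GC trend taken away. That of glycerolipid synthesis went from 0.035 to -0.0022 at a mean FPKM of at least 5. Of 143 values of single members, 4 moved by more than the reach of their counting interval. Those 4 were Idi1 (0.012), Fasn (0.064), Scd2 (-0.0016) and Fads2 (0.020) with the GC trend taken away. Over all genes, the 488 genes at least 1.2-fold higher became 322 at a mean of at least 5 and 50 with 1 coding transcript, and the 533 lower became 111 with 1 coding transcript. At 1.5-fold, 96 higher became 147, 159 and 5 with pseudocounts of 0.1 and 0.001 and with 1 coding transcript, and 108 lower became 10 with the last. At 2-fold, 30 higher became 1 with 1 coding transcript, and 37 lower became 56, 58 and 3 under those same alternatives. Depth limits low genes: 1 read is worth 0.0176 FPKM in PBS and 0.0274 in oxalate in a transcript of 1 kb.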

Other observations

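Acat3 (chromosome 17, 12923813 to 12940600), the near copy of Acat2, was at 4.89 FPKM in PBS and 1.57 in oxalate. With the pseudocount it was 2.29-fold lower (log2 fold change -1.20). Without the pseudocount the log2 ratio was -1.64, with a counting interval of -1.93 to -1.36. It was chosen after its values were seen. Acat2 and Acat3 summed to 43.96 and 39.90 FPKM (log2 fold change -0.14). The part of reads shared between the copies was not tested, and there is no replicate.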
